A study of Homo sapiens with 24 samples.

Results

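The genes described here are 37 genes of the actin cytoskeleton and the contractile apparatus, namely actin isoforms, tropomyosins, calponins, transgelins, myosin chains, crosslinkers, LIM-domain proteins, caveolins and the transcription factor SRF. They were taken from a list of gene names and found on the array through the accession of each probe. A probe for 34 of the 37 genes was matched, and all 34 were well above background on the 3 arrays of at least 1 group, out of 17900 genes that passed the same filter among 31204 gene names on the array. No probe was matched here for *CNN2*, *ABLIM1* and *RHOB*. Of the 34 genes, 31 were tested in PLC/PRF/5 cells (16682 genes in all), since *ACTA2*, *ACTG2* and *CNN1* were not well above background there, and 33 were tested in SNU-449 cells (16100 genes in all), since *MYH11* was not.

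PLC/PRF/5 and SNU-449 are established lines from human hepatocellular carcinoma (HCC). Cultures were starved of serum overnight and then, for 16 h, left as untreated controls or given TGFβ1 (1 ng/mL), galunisertib (10 µM), which blocks the TGFβ receptor kinase ALK5, or both. There were 3 independent cultures in each of the 4 groups of a line. RNA was hybridised to 24 one-colour Agilent arrays. Each line is 1 cell population grown in culture, so replicates measure the spread between cultures of that line. A level below is the log2 of a probe's signal over the 75th percentile of its array, with a floor at -4.13, and a difference is between group means on that scale. A gene was called at a Benjamini-Hochberg adjusted p below 0.05 with limma over all genes tested.

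Actin filaments carry tension when non-muscle myosin pulls on them, and tropomyosins, calponins, transgelins and caldesmon bind along the filament and set how it is used. The smooth muscle isoforms of these proteins are classical marks of TGFβ-treated mesenchymal cells. Many of their genes are transcribed through SRF, which binds the CArG box and is activated by myocardin-related cofactors when the pool of free actin falls, while SMAD proteins carry the TGFβ receptor signal to the nucleus.

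The 75th percentile of the arrays ran from 145 to 262 intensity units, with the first PLC/PRF/5 control array the dimmest and the next lowest at 195, and 41.6% to 49.6% of probes were well above background. The 3 slides of 8 arrays each held replicate 1, 2 or 3 of every group, and each group lay at the same position on every slide. All arrays with TGFβ1 lay in the second row of the slide and all others in the first row. The lines, and within a line the arrays with and without galunisertib, lay in different columns. A difference of position thus cannot be told apart from the treatment or the line. The hepatocyte list (*ALB*, *APOA1*, *APOB*, *TTR*, *SERPINA1*, *AMBP*) was well above background on all PLC/PRF/5 arrays for 6 of 6 genes, with a summed level of 621 to 896 times the 75th percentile on the control arrays. In SNU-449 control cells it summed to 1.94 to 2.22, where 4 of 6 genes were well above background and *ALB* and *APOB* were not. Of the smooth muscle list, *DES* alone passed, at a summed level of 0.913 to 2.25 over all groups, and *MYOCD*, *LMOD1* and *SYNPO2* were measured by no probe that passed. Among the direct TGFβ targets, *SMAD7* and *SKIL* had log2 differences of 0.80 and 1.63 after TGFβ1 in PLC/PRF/5, and *PMEPA1*, not well above background on the control arrays there, was at least 4.54-fold higher, all called. In SNU-449, *SMAD7*, *SKIL* and *PMEPA1* had 0.65, 0.93 and 1.39, where *SKIL* was not called. Galunisertib alone lowered them in SNU-449 by differences of -1.90, -2.62 and -3.50 (limma, adjusted p = 0.000151, 0.00108 and 0.000666). In PLC/PRF/5 it gave -0.44 for *SMAD7* and -0.63 for *SKIL* (adjusted p = 0.0411 and 0.00963), with *PMEPA1* not well above background in either group.

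The sequences upstream of 8 genes are shown because these genes moved with treatment and either hold or lack the CArG box, the site that links several contractile genes to SRF. RefSeq promoter windows of 300 bases (250 before the annotated start and 50 after, assembly GRCh38.p14) were at hand for 33 of the 37 genes, with 62 windows in all. The CArG box was searched as CC, then 6 bases that are each A or T, then GG, which reads the same on both strands. It was present in 11 of 62 windows (17.7%), against 454 of 35116 windows (1.29%) in the whole table, and in 9 of 33 genes (27.3%) against 1.6% of all genes. Of these 9 genes, 8 were measured (*ACTG1*, *ACTG2*, *ACTN1*, *FHL2*, *FLNA*, *MYLK*, *SRF* and *TPM4*), and *CNN2* was not. For comparison, CATTCC, the core of the TEAD site, was on either strand in 19.4% of these windows and 14% of all, or 33.3% of these genes and 16.7% of all. The SMAD box CAGAC was in 54.8% and 45.3% of windows, or 63.6% and 50% of genes. A match in these letters is a description of the window, not a shown binding site. A gene can have several annotated starts, and 1 window is printed for each of the 8 genes. A printed box is therefore that of 1 start, and whether the array probe reads the transcript from that start was not tested. The 250 bases before the start are printed 5′ to 3′ on the strand of the gene, in lower case with the CArG box in capitals. The following 6 hold the box.
*ACTG1* (chr17:81512800-81513049, minus strand): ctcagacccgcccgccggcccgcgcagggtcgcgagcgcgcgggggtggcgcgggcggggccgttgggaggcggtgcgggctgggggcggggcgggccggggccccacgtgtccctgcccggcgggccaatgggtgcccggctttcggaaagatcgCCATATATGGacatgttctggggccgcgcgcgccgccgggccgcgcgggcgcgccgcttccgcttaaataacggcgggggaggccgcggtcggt
*ACTN1* (chr14:68977567-68977816, minus strand): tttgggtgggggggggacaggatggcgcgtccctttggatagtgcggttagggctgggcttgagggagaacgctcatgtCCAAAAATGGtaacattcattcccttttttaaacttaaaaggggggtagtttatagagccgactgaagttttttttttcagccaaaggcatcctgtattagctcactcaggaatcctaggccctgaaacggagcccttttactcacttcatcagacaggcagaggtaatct
*FLNA* (chrX:154374635-154374884, minus strand): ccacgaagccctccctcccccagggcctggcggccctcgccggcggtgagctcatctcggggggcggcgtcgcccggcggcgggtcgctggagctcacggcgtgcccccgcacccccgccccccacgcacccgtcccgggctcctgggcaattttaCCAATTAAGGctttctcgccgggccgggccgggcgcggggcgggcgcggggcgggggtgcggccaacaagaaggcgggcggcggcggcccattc
*MYLK* (chr3:123620549-123620798, minus strand): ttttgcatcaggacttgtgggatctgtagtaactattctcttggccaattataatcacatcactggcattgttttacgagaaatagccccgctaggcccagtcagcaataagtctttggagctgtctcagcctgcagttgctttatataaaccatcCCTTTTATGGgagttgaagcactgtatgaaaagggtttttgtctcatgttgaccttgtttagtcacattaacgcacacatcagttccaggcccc
*SRF* (chr6:43171019-43171268, plus strand): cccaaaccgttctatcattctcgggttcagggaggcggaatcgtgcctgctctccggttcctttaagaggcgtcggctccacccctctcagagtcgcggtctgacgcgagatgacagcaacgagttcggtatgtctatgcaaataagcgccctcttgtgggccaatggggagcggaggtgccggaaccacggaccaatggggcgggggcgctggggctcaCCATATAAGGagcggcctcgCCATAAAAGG
*TPM4* (chr19:16067288-16067537, plus strand): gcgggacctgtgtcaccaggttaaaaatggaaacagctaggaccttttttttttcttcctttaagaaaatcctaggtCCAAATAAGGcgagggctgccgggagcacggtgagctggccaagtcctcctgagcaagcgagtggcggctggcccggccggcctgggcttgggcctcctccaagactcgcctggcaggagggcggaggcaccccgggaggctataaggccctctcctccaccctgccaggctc
The windows of *TPM1* and *ABLIM3*, both of which rose with TGFβ1 in both lines, held no CArG box in these bases.
*TPM1* (chr15:63048239-63048488, plus strand): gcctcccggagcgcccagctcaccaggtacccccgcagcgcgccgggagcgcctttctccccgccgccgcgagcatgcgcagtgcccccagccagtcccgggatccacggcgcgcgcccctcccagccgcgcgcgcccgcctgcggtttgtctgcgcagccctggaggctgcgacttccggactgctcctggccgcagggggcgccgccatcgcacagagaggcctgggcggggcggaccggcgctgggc
*ABLIM3* (chr5:149141243-149141492, plus strand): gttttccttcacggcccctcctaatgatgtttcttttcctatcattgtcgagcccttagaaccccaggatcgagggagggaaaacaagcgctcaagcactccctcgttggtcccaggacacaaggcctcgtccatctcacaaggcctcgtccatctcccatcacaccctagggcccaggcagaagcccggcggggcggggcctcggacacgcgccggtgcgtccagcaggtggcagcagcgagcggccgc
The first base of the box lay 94 bases before the start in *ACTG1*, *FLNA* and *MYLK*, 171 in *ACTN1* and 173 in *TPM4*. *SRF* itself held 2 boxes, at 30 and 10 bases before the start.

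Untreated SNU-449 cells had the higher level for most of the genes. Of 34 genes tested between the control cells, 29 were higher in SNU-449 and 3 higher in PLC/PRF/5, where 68.5% of all genes differed (34.6% higher in SNU-449 and 33.9% higher in PLC/PRF/5). The median difference, PLC/PRF/5 minus SNU-449, was -1.74, or -1.73 with the 4 genes below background in a line at their bound, against 0.06 over all genes. In such bulk samples, fewer cells that express a gene and less RNA per cell cannot be told apart. *TLN1* (-0.26, adjusted p = 0.0997) and *TPM4* (0.02, adjusted p = 0.954) did not pass in limma.

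Among the actins, the smooth muscle isoforms separated the lines most. *ACTG2*, enteric smooth muscle actin, was at 1.00, 1.32 and 1.23 on the SNU-449 control arrays, while no PLC/PRF/5 array had it well above background. The level in SNU-449 was at least 35.8-fold that in PLC/PRF/5 (limma, adjusted p = 2.2e-19). *ACTA2*, the vascular isoform, was at -2.48, -2.39 and -2.56 in SNU-449, at least 2.83-fold higher than in PLC/PRF/5, where it was likewise not well above background. A fold stated as at least N sets the line without signal to the weakest signal that the scanner software accepted, array by array. The cytoplasmic isoforms were also called but differed less, with *ACTB* at -0.49 and *ACTG1* at -0.59 on the log2 scale. A second *ACTB* probe differed the other way, by 0.34, and with the mean of both (-0.07) the call was lost. The actin genes are nearly identical in coding sequence and the probe sequences were not used here, so signal from one isoform on the probe of another was not tested.

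The filament-binding regulators of contraction were almost all higher in SNU-449. *CNN1*, the smooth muscle calponin, was at 6.25, 6.71 and 6.54 in SNU-449 control cells, at least 1423-fold above PLC/PRF/5, where it had no array well above background (limma, adjusted p = 5.27e-23). *TAGLN*, transgelin or SM22α, was at 5.25, 5.31 and 5.41 in SNU-449 and at -0.25, -0.14 and -0.12 in PLC/PRF/5, a difference of -5.49 with a standard error of 0.11. Both genes thus stood far apart between the lines on every array. *TPM2*, the β-tropomyosin, went the other way, at 6.55, 6.53 and 6.73 in PLC/PRF/5 and 2.52, 2.94 and 3.13 in SNU-449, so that it was higher by 3.74 in PLC/PRF/5 (limma, standard error 0.24, adjusted p = 2.42e-11). *TPM1* (-2.19) and *TPM3* (-0.80) were higher in SNU-449, so the tropomyosin genes did not move as 1 group.

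The contractile motor showed a similar split. *MYL9*, the regulatory light chain, differed by -4.67 and *MYLK*, the kinase that phosphorylates it, by -3.96, both higher in SNU-449. *MYH9* and *MYH10*, the heavy chains of non-muscle myosin IIA and IIB, differed by -2.90 and -1.82. *MYH11*, the smooth muscle heavy chain, was near the floor, at -4.13, -3.37 and -3.29 in PLC/PRF/5 with 2 of 3 arrays well above background, and at the floor in SNU-449. Its groups overlapped, and its fold of at least 1.44 in favour of PLC/PRF/5 (limma, adjusted p = 0.00709) is the smallest of the 3 genes higher in that line.

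LIM-domain proteins and caveolins gave some of the widest gaps. *FHL2*, a LIM-only cofactor, was at 4.95, 4.91 and 5.11 in SNU-449 and at -3.85, -3.34 and -3.11 in PLC/PRF/5, where 2 of 3 arrays were well above background, a difference of -8.42 (standard error 0.23). *CAV1*, the main coat protein of caveolae, was at 6.69, 6.99 and 6.96 against -0.78, -1.12 and -0.46, a gap of -7.66 (limma, standard error 0.15, adjusted p = 1.67e-19), and *CAV2* differed by -5.13. *ABLIM3*, an actin-binding LIM protein, was the exception, at 0.74, 0.78 and 0.93 in PLC/PRF/5 against -3.30, -2.74 and -2.65 in SNU-449, a gap of 3.72 (standard error 0.16). *FLNA*, the filamin that crosslinks filaments, differed by -3.69, and the other crosslinking and adhesion genes except *TLN1* by -1.64 to -2.58, higher in SNU-449. The arrays of the lines did not overlap for 31 of the 32 called genes, as for 96.1% of all genes called. A further probe passed for 15 of the 32 and lay on the other side of 0 for *ACTB* and for *PDLIM5* (0.73, against -0.21 for the probe used).

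**Figure D1:**
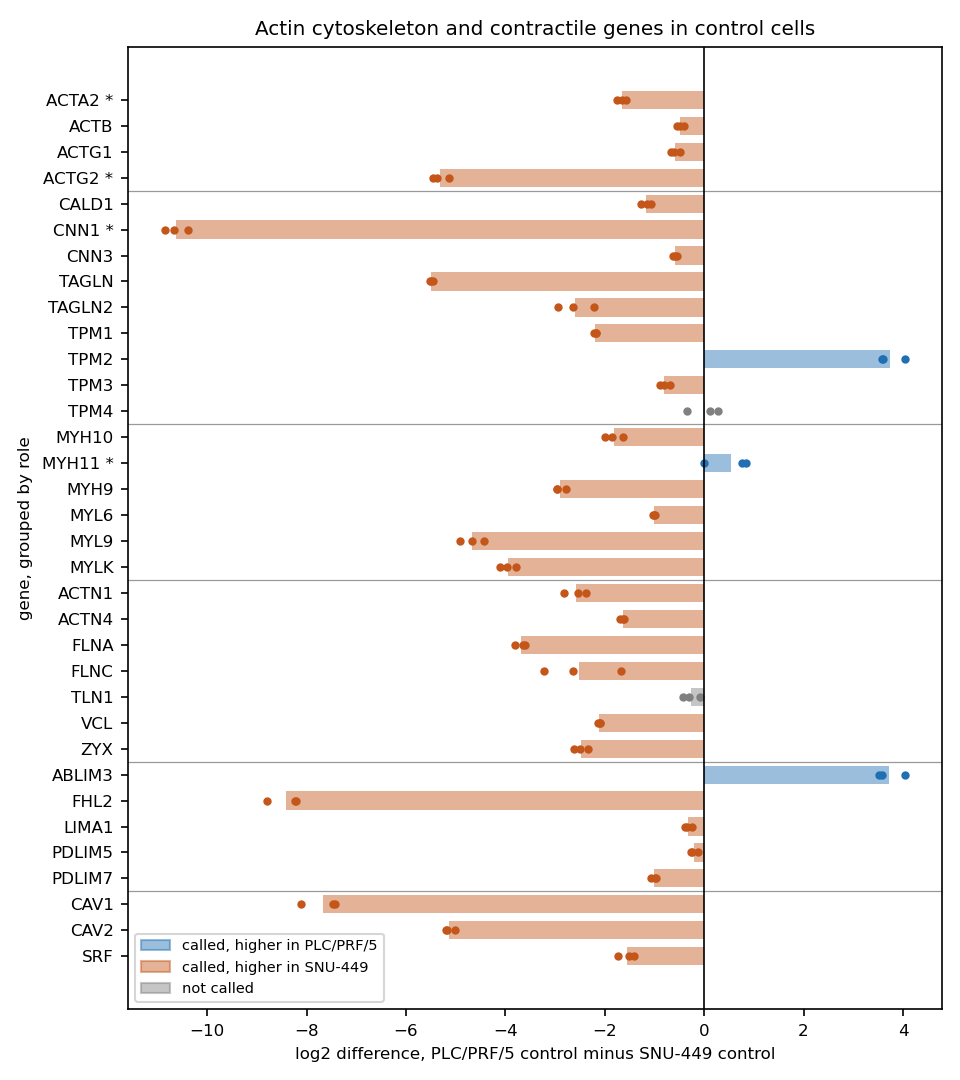
Log2 difference between the control cells of the lines (x axis, PLC/PRF/5 minus SNU-449) for each of the 34 genes (y axis, grouped by role), with bars for the difference of the group means and points for the 3 slides. Bars to the left are higher in SNU-449, and *TPM2*, *ABLIM3* and *MYH11* are the 3 called to the right. An asterisk marks the 4 genes that were not well above background in one of the lines, whose bar depends on the floor.

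TGFβ1 raised 10 of the 31 genes in PLC/PRF/5 and lowered none past the threshold, while 13.6% of all genes were called there (6.35% higher and 7.21% lower). The median difference of the 31 genes was 0.27, against -0.04 over all genes, and 23 of 31 differences were above 0. At an unadjusted p below 0.05, 22 of the 31 genes passed (71%), against 27.6% of all genes. The arrays with TGFβ1 and the control arrays did not overlap for any of the 10, nor for 99.7% of all genes called.

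*TAGLN2*, the widely expressed transgelin, moved most, from 1.90, 1.72 and 1.51 on the control arrays to 2.91, 3.21 and 2.89 with TGFβ1, a difference of 1.30 (standard error 0.12, 2.46-fold, limma, adjusted p = 8.38e-05). *TPM1*, α-tropomyosin, went from 3.72, 3.96 and 3.94 to 4.86, 5.06 and 5.02, a difference of 1.11 (standard error 0.12, 2.15-fold, adjusted p = 0.000212 with limma). For both genes every array with TGFβ1 lay well above every control array, and they were the 2 of 31 that passed the study's limits of a fold above 2 and an unadjusted p below 0.001, as 1.11% of all genes did. *CAV1* went from -0.78, -1.12 and -0.46 to -0.08, 0.19 and 0.05 (difference 0.84, standard error 0.18, limma, adjusted p = 0.0112).

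Smaller rises spread over the other roles. *MYH10* rose by 0.69 and *MYL9* by 0.56 among the myosins, *ABLIM3* by 0.60 among the LIM proteins, and *CALD1* (caldesmon, which holds myosin off the filament) by 0.43. *ZYX*, zyxin of focal adhesions, rose by 0.45, *CAV2* by 0.46 and *ACTG1* by 0.32, with limma adjusted p of 0.0217, 0.044 and 0.0309. *ACTG1* and *CAV2* lost their call when any 1 of the 6 arrays was left out, and *CAV2* also with the replicate number as a block, with which 9 genes were called. *TAGLN* (0.30, adjusted p = 0.134) and *FLNA* (0.65, adjusted p = 0.0853) did not pass in limma. With each array scaled to its median, 3 of the 31 genes were called.

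In SNU-449, TGFβ1 raised 6 of 33 genes and lowered 2, where 10.3% of all genes were called (5.62% higher and 4.7% lower). The median difference was 0.16, against 0.02 over all genes. *ABLIM3* moved far more than any other, from -3.30, -2.74 and -2.65 on the control arrays to -0.06, -0.16 and 0.00 with TGFβ1, a difference of 2.83 (standard error 0.19, 7.09-fold, limma, adjusted p = 1.29e-05). It was the only 1 of 33 past the study's limits, which 2.31% of all genes passed. A second *ABLIM3* probe, dimmer, was not well above background in SNU-449 control cells and was so on 2 of 3 arrays with TGFβ1.

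*TPM1* rose by 0.75 (from 5.90, 6.13 and 6.16 to 6.80, 6.91 and 6.74, limma, adjusted p = 0.000894), and *TAGLN* by 0.64 (from 5.25, 5.31 and 5.41 to 5.91, 6.01 and 5.97, limma, adjusted p = 0.00338). *TAGLN2* rose by 0.58, *PDLIM7*, a PDZ and LIM protein of the filament, by 0.49 and *ZYX* by 0.41. These groups did not overlap for any of the 6 genes that rose, nor for 99.9% of all genes called. Both directions were seen, since *MYLK* fell by 0.52 (from 5.41, 5.60 and 5.51 to 4.99, 4.96 and 5.02, limma, adjusted p = 0.00286) and *CAV1* by 0.43 (from 6.69, 6.99 and 6.96 to 6.36, 6.52 and 6.45, limma, adjusted p = 0.0381). With the replicate number as a block the call of *CAV1* was lost and *CNN1* was called (0.56, limma, adjusted p = 0.0306), so that 7 genes rose and 1 fell. On the scale of the array median 4 genes rose and none fell, and with the authors' own normalized values 6 rose and 1 fell. Without the block, *CNN1* had an adjusted p of 0.0719, and *CALD1* had a difference of 0.43 (limma, adjusted p = 0.171).

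The lines share no arrays, so the TGFβ1 calls were set side by side. They do share the 3 slides, with the TGFβ1 arrays of both in the second row. A position effect common to both lines thus cannot be told apart from a shared response to TGFβ1. Of the 10 genes called in PLC/PRF/5 and the 8 in SNU-449, 5 were the same (50% of the first and 62.5% of the second). Over all genes, 421 were called in both lines (18.6% of the PLC/PRF/5 calls and 25.3% of the SNU-449 calls). *ABLIM3*, *TAGLN2*, *TPM1* and *ZYX* rose in both, and *CAV1* rose in PLC/PRF/5 and fell in SNU-449. The difference between the lines was itself tested, as the SNU-449 effect minus the PLC/PRF/5 effect, and was called for 5 of 34 genes (14.7%), 3 of them higher in SNU-449 and 2 lower, and for 8.62% of all genes (4.29% higher and 4.33% lower). *ABLIM3* and *CAV1* also passed the study's limits, as did 2.29% of all genes. It was 2.23 for *ABLIM3* (limma, adjusted p = 1.34e-06), -1.27 for *CAV1* (adjusted p = 0.00063) and -0.72 for *TAGLN2* (adjusted p = 0.00726). *PDLIM5* and *TPM3* also differed, by 0.45 and 0.35, without a call in either line. The difference for *TPM1* was not called. The 3 higher and 2 lower calls became 1 and 0 with each array scaled to its median, 3 and 4 with the percentile over detected probes alone (those above background on each of the 24 arrays), and 1 and 5 with quantile normalization.

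**Figure D2:**
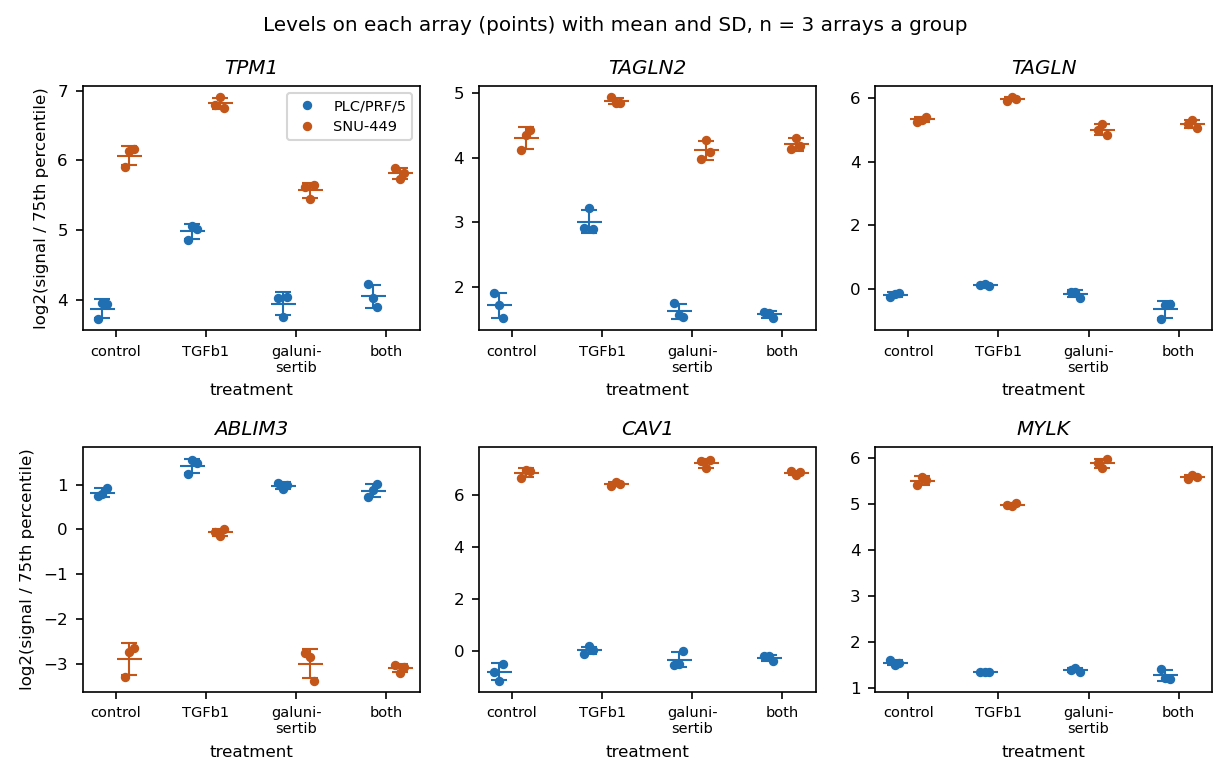
Level of 6 genes (y axis, log2 of the signal over the 75th percentile of the array) in the 4 treatment groups (x axis) of PLC/PRF/5 (blue) and SNU-449 (orange), with points for the 3 arrays and bars for the mean and SD. *TPM1* and *TAGLN2* peak with TGFβ1 alone in both lines, *ABLIM3* does so in SNU-449 from near background, and *CAV1* and *MYLK* are lowest with TGFβ1 alone in SNU-449.

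Galunisertib alone was compared with control to see what blocking the receptor does without added ligand. In PLC/PRF/5, 4 of 31 genes were called, all higher, where 5.38% of all genes were called (3.64% higher and 1.74% lower). *ACTN1*, the α-actinin that bundles filaments at adhesions, went from 3.25, 3.23 and 2.93 to 3.49, 3.58 and 3.53 (difference 0.40, standard error 0.09, limma, adjusted p = 0.0313). *ZYX* went from 0.29, 0.54 and 0.48 to 1.15, 0.81 and 0.71 (difference 0.45, standard error 0.11, limma, adjusted p = 0.0403). The gain of *ZYX* was largest on slide 1, at 0.86, and was 0.27 and 0.24 on the others.

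*CNN3*, the acidic calponin, rose by 0.38. *MYH11* went from -4.13, -3.37 and -3.29, with 2 of 3 arrays well above background, to -2.79, -2.26 and -2.83 (difference 0.97, limma, adjusted p = 0.0303), so its difference depends on the floor. No gene was called after leaving out a whole replicate or by the methods' t-test, and 0 or 1 after leaving out any single array. That t-test was run here gene by gene, without the random variance model that the paper used with it. None passed the study's limits, which 0.348% of all genes did, and 13 of the 31 (41.9%) had an unadjusted p below 0.05 in limma, against 23.2% of all genes.

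In SNU-449, galunisertib lowered 6 of 33 genes and raised 3, where 7.27% of all genes were called (2.04% lower and 5.22% higher). The median difference was -0.16, against 0.09 over all genes. *CALD1* fell from 4.44, 4.39 and 4.49 to 3.78, 3.14 and 3.91, a difference of -0.83 (limma, standard error 0.18, adjusted p = 0.0214), and its 3 galunisertib arrays were widely spread. *ACTN1* fell from 5.79, 5.60 and 5.76 to 4.82, 5.28 and 4.87 (difference -0.73, standard error 0.13, limma, adjusted p = 0.00963). *ZYX* fell from 2.91, 2.88 and 2.97 to 2.38, 2.46 and 2.23 (difference -0.57, standard error 0.09, limma, adjusted p = 0.00641). In these genes of filament bundling and adhesion, no galunisertib array reached the lowest control array. The 2 groups were likewise apart for 100% of all genes called.

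*LIMA1*, a LIM protein that stabilises filaments, fell by 0.62, *PDLIM7* by 0.53 and *TPM1* by 0.50. The 3 genes that rose were *ACTA2*, from -2.48, -2.39 and -2.56 to -1.61, -1.82 and -1.63 (difference 0.79, standard error 0.11, limma, adjusted p = 0.00316), *MYLK* by 0.38 and *MYH9* by 0.32. A second *MYH9* probe moved the other way, by -0.43, and the mean of both probes gave -0.05. *MYH10* had a difference of -1.54, on arrays at 1.47, 1.54 and 1.51 in control and -0.26, 0.83 and -0.68 with galunisertib. It was not called (limma, standard error 0.46, adjusted p = 0.0732), and its SNU-449 arrays with TGFβ1, at 2.48, 0.86 and 2.46, were also far apart. With each array scaled to its median, or by the methods' t-test, 0 of the 33 genes were called, and none passed the study's limits, which 1.13% of all genes did. Those limits were applied to the limma p, and the paper's galunisertib gene tables state a looser p, which was not used. With the percentile over detected probes alone, 8 fell and 2 rose. At an unadjusted p below 0.05, 17 of the 33 passed in limma (51.5%), against 24.8% of all genes.

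The galunisertib effect differed between the lines for 10 of 34 genes (29.4%), 8 of them lower in SNU-449, while 5.87% of all genes differed (2.44% lower in SNU-449 and 3.43% higher). *ACTN1* and *ZYX* were called in both lines in opposite directions, and the difference between the lines was -1.13 (limma, adjusted p = 0.000162) and -1.02 (adjusted p = 0.000166). *PDLIM7* differed by -0.75, with 0.23 in PLC/PRF/5 and -0.53 in SNU-449, *PDLIM5* by -0.58, *TPM1* by -0.56 and *CNN3* by -0.50. *FHL2* differed by -1.50 (limma, adjusted p = 0.00907), with 0.77 in PLC/PRF/5 (adjusted p = 0.0829) and -0.73 in SNU-449 (adjusted p = 0.0642), although neither line gave a call. Its PLC/PRF/5 control arrays were near the floor and not all well above background, so that part of the difference rests on dim signal. *MYLK* differed by 0.55, since it had -0.17 in PLC/PRF/5 and 0.38 in SNU-449. For *ACTA2* (0.79) and *MYH11* (-0.97), 1 of the 2 lines was at the floor throughout, so the difference holds the change of the other line alone. Of the 10, *ACTN1* and *ZYX* were called under each of the 13 alternatives that gave a value, and with each of the 12 arrays left out in turn. Only 3 genes were called on the scale of the array median, all lower in SNU-449.

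**Figure D3:**
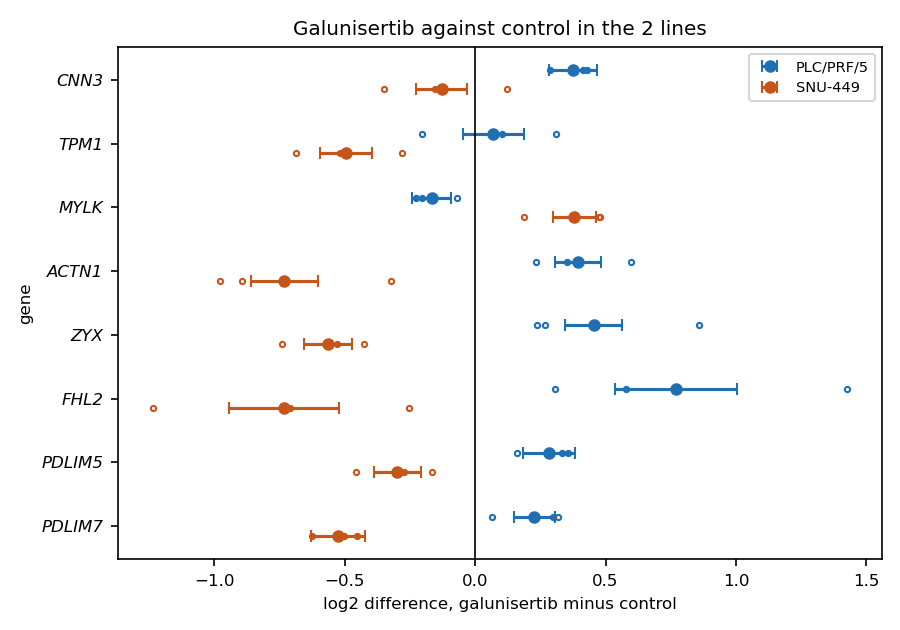
Log2 difference between galunisertib and control (x axis) in PLC/PRF/5 (blue) and SNU-449 (orange) for the 8 genes (y axis) whose effect differed between the lines and that had signal above the floor in both. Filled circles are group differences with standard errors, and open circles the 3 slides. *FHL2* was near the floor in PLC/PRF/5 control cells. *ACTN1* and *ZYX* lie to the right in PLC/PRF/5 and to the left in SNU-449 on every slide, and *MYLK* the reverse.

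Galunisertib added to TGFβ1 was compared with TGFβ1 alone. This comparison shares the TGFβ1 arrays with the one above, so a rise there and a fall here are not independent, and the values are given side by side. In SNU-449, 15 of 33 genes fell and 3 rose, where 16.9% of all genes were called (7.32% lower and 9.57% higher), and the median difference was -0.38, against 0.01 over all genes. *ABLIM3* fell from -0.06, -0.16 and 0.00 with TGFβ1 to -3.04, -3.21 and -3.08 with both, a difference of -3.04 (standard error 0.19, 8.2-fold lower, limma, adjusted p = 4.78e-06). *ABLIM3*, *CNN1* and *TPM1* passed the study's limits, as 3.8% of all genes did. The 3 *ABLIM3* arrays with both agents lay between the lowest and highest control and galunisertib arrays of that line.

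*CNN1* fell from 6.92, 7.06 and 7.18 to 5.88, 6.17 and 5.96 (difference -1.05, standard error 0.17, limma, adjusted p = 0.00218). *TPM1* fell from 6.80, 6.91 and 6.74 to 5.88, 5.73 and 5.82 (difference -1.0, standard error 0.10, limma, adjusted p = 8.38e-05). *TAGLN* fell from 5.91, 6.01 and 5.97 to 5.17, 5.29 and 5.04 (difference -0.80, limma, adjusted p = 0.000535). Together with *TAGLN2* (-0.68), *CALD1* (-0.62) and *TPM4* (-0.81), these made 6 of the filament-binding regulators, each with no overlap between the arrays. Among all genes called here, 99.7% had no overlap either.

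The other falls in SNU-449 covered adhesion, LIM and myosin genes. *PDLIM7* fell by 0.84, *ZYX* by 0.66, *PDLIM5* by 0.53, *ACTN1* by 0.50, *FLNA* by 0.46, *MYL6* by 0.40 and *MYL9* by 0.38. *SRF* itself fell by 0.48, from -0.29, -0.50 and -0.42 to -1.11, -0.79 and -0.76 (limma, adjusted p = 0.0192). The second *FLNA* probe moved by 0.45, against the probe used. *MYLK* rose by 0.60, *ACTA2* by 0.48 and *CAV1* by 0.43, and none of the 3 overlapped, as for 99.7% of all genes called. Of the measured genes with a CArG box, *ACTN1*, *FLNA*, *SRF* and *TPM4* fell here and *MYLK* rose, while *ACTG1*, *ACTG2* and *FHL2* were not called. Beside this, 54.5% of the 33 genes and 16.9% of all genes were called. With TGFβ1 versus control in SNU-449, *MYLK* was the only one of the box-holding genes called, and it fell. A link between the box and the changes was not tested. The call of *MYL9* was lost with the replicate number as a block, with which 17 genes were called. Scaled to the array median, 10 genes were called, all lower.

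In PLC/PRF/5, where 39.1% of all genes were called in this comparison (13.2% lower and 25.8% higher), 11 of 31 genes fell and 5 rose. The median difference was -0.11, against 0.06 over all genes. *TAGLN2* fell from 2.91, 3.21 and 2.89 to 1.60, 1.59 and 1.50 (difference -1.44, standard error 0.12, limma, adjusted p = 1.63e-05). *MYL9* fell from 0.81, 0.87 and 0.80 to -0.26, -0.26 and -0.29 (difference -1.10, standard error 0.10, limma, adjusted p = 2.54e-05), below all its control arrays. These 2 passed the study's limits, as 3.12% of all genes did.

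*TPM1* fell by 0.93, *FLNA* by 0.82, *TAGLN* by 0.75, *TLN1* (talin, which ties integrins to filaments) by 0.65, *TPM4* by 0.63, *ABLIM3* by 0.55, *ACTN4* by 0.50, *ZYX* by 0.45 and *ACTN1* by 0.28. *CNN3*, *VCL* (vinculin, a partner of talin), *PDLIM5*, *TPM3* and *MYH10* rose by 0.68, 0.67, 0.58, 0.50 and 0.42. *VCL* went from 2.22, 2.52 and 2.52 to 3.16, 3.06 and 3.06 (limma, adjusted p = 0.000688). A second probe of *FLNA* moved by 0.13, against the probe used. The split depended on the scale. With each array scaled to its median it was 5 lower and 6 higher, and with the percentile over detected probes alone 20 lower and 4 higher.

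Across the lines, 10 genes were called in both, which is 62.5% of the 16 in PLC/PRF/5 and 55.6% of the 18 in SNU-449. Over all genes these shares were 17.2% and 41.3%. Of these, *ABLIM3*, *ACTN1*, *FLNA*, *MYL9*, *TAGLN*, *TAGLN2*, *TPM1*, *TPM4* and *ZYX* fell in both. For *FLNA* this holds for the probe used, and its second probe rose, by 0.13 in PLC/PRF/5 and 0.45 in SNU-449. *PDLIM5* rose in PLC/PRF/5 and fell in SNU-449.

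TGFβ1 added to galunisertib was compared with galunisertib alone, which shows what the ligand does under the inhibitor. In SNU-449, *SMAD7*, *SKIL* and *PMEPA1* rose by 1.38, 2.08 and 2.77 in this comparison (limma, adjusted p = 0.00143, 0.00958 and 0.0063). Of the 33 genes, 2 were called, and 1.86% of all genes (0.901% higher and 0.957% lower). *LIMA1* rose by 0.48, from 2.42, 2.17 and 2.46 to 2.88, 2.88 and 2.71 (limma, adjusted p = 0.0423), and *ACTA2* fell by 0.54 (adjusted p = 0.0415). Each call was lost when any whole replicate was left out. *ABLIM3* was at -2.77, -2.86 and -3.38 with galunisertib and -3.04, -3.21 and -3.08 with both, which overlap. *MYH10* had the largest difference, 2.11, and did not pass (limma, adjusted p = 0.0526).

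In PLC/PRF/5, 8 of 31 genes were lower with both agents than with galunisertib and 2 higher, where 8.52% of all genes were called (4.93% lower and 3.6% higher). None of *SMAD7*, *SKIL* and *PMEPA1* was called in this comparison, with differences from -0.31 to 0.20. *TLN1* went from 2.43, 2.15 and 2.24 to 1.19, 1.42 and 1.40 (difference -0.94, standard error 0.10, limma, adjusted p = 0.00284), and on the control and TGFβ1 arrays it lay between 1.93 and 2.21. *MYH10* went from -0.20, -0.49 and -0.52 to 0.99, 0.68 and 0.71 (difference 1.20, standard error 0.12, limma, adjusted p = 0.00284). Talin was thus lowest, and the non-muscle IIB heavy chain highest, in PLC/PRF/5 cells that received both agents. *MYH11* fell by 1.24, with 2 of 3 arrays well above background under both agents. *TAGLN* fell by 0.49, *ACTN1* by 0.48, *TPM2* by 0.48, *ZYX* by 0.45, *MYL9* by 0.39 and *ACTN4* by 0.38, and *CALD1* rose by 0.45. No gene was called here in both lines. Scaled to the array median, 2 were lower and 1 higher. By the methods' t-test 0 of the 31 genes were called, against 12 (38.7%) at an unadjusted p below 0.05 in limma, which 29.9% of all genes passed, and 0 to 2 were called after leaving out a whole replicate.

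**Figure D4:**
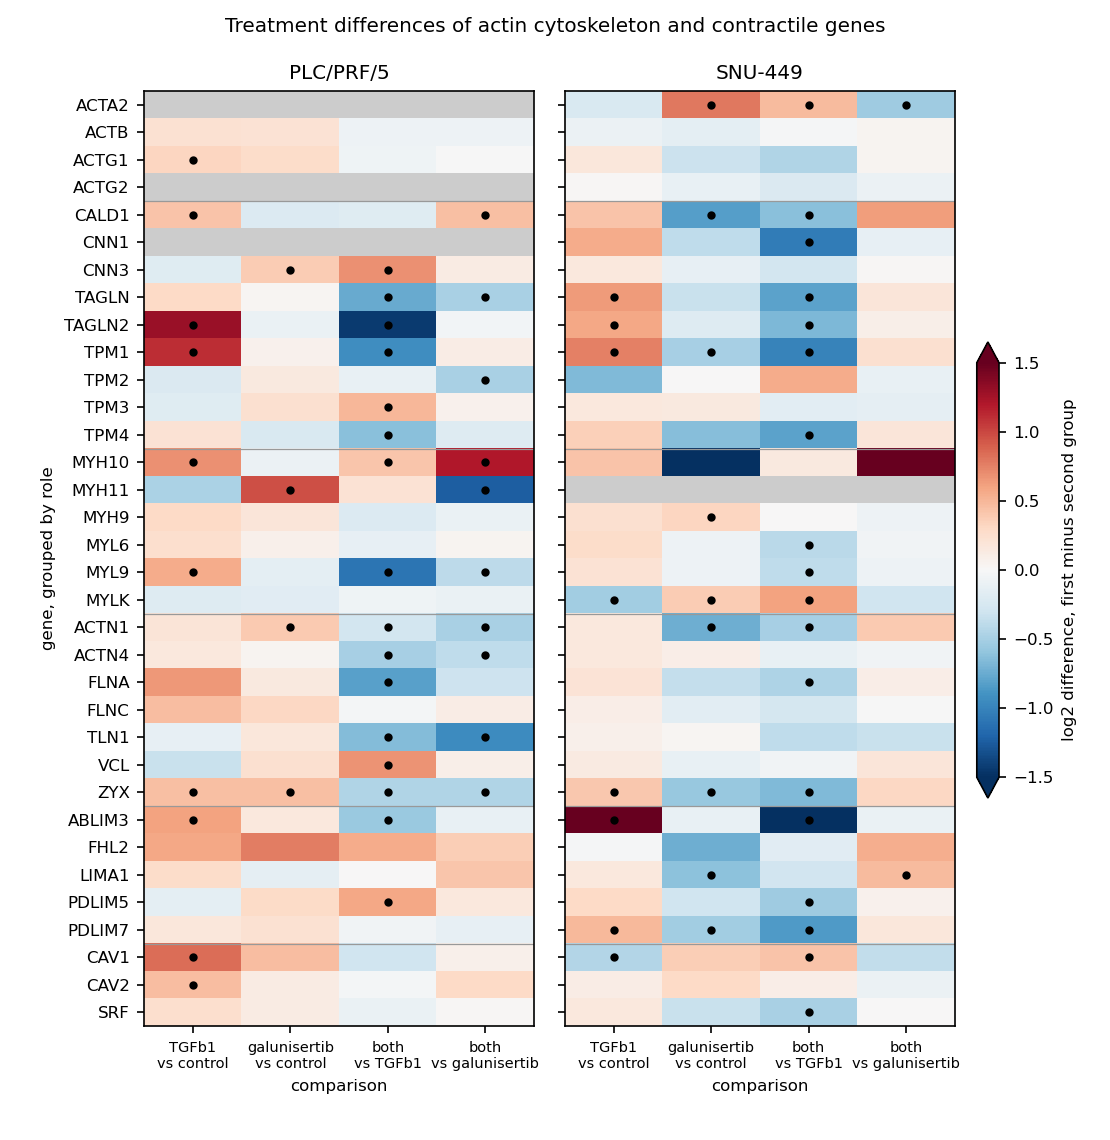
Log2 difference (colour, red higher and blue lower in the first group) of each gene (y axis, grouped by role) in the 4 treatment comparisons (x axis) of each line, with a black dot where the gene was called and grey where it was not tested. The colour scale ends at 1.5 either way, which *ABLIM3* and *MYH10* pass in SNU-449. The column of both agents against TGFβ1 in SNU-449 holds the most dots, 18.

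Over the 8 treatment comparisons, 30 of the 34 genes were called at least once, with 77 calls in all. Over all genes there were 16949 calls, and the share called at least once was not counted. Both agents versus TGFβ1 in PLC/PRF/5 alone called 39.1% of all genes. The 30 of 34 thus has no share of all genes to be read against. Each of the 77 had arrays that did not overlap and the same sign on each of the 3 slides, as did 99.6% and 99.9% of all calls in these comparisons. *ZYX* had the most, 7 of 8, and *ACTN1* and *TPM1* had 5. The comparisons of a line share groups of arrays, so the calls of a gene are not independent of each other. *ACTB*, *ACTG2*, *FHL2* and *FLNC* had none. A further probe of the same gene passed the filter for 29 of the 77 calls and moved the same way for 25. The 4 others were the calls of *FLNA* (2) and *MYH9* (1) given above and that of *TPM3* in PLC/PRF/5, where further probes moved by -0.02 and -0.08.

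Other genes of the pathway were read from 2 further lists of related genes. The list of actin assembly and turnover (32 genes, 31 tested) held 3 called genes for TGFβ1 in SNU-449 (9.68%, against 10.3% of all genes) and 4 in PLC/PRF/5 (12.9%, against 13.6%), close to the share of all genes. Of these, *CAPG*, a filament capping protein, rose by 0.90 in PLC/PRF/5. Of the further contractile and focal adhesion genes (31 genes, 25 tested in PLC/PRF/5 and 27 in SNU-449), 9 rose and 1 fell with TGFβ1 in PLC/PRF/5, where 6.35% of all genes rose and 7.21% fell, led by the focal adhesion protein *TNS1* at 1.51. In SNU-449, 3 rose, where 5.62% of all genes did, led by *PALLD*, palladin of stress fibres, at 0.89. With both agents against TGFβ1 in SNU-449, 12 of 27 fell and 2 rose, beside 7.32% and 9.57% of all genes. Galunisertib alone in SNU-449 lowered 5 of 27, beside 2.04% of all genes, led by *NEXN*, a filament-binding protein, at -0.90.

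Markers of other cell types moved with some of these comparisons in PLC/PRF/5. Of the fibroblast or stellate cell list, 2 of 4 genes were measured, and the summed level was 1.62 to 1.80 times the 75th percentile on the control arrays, 2.65 to 2.76 with TGFβ1, 0.885 to 1.26 with galunisertib and 1.25 to 1.44 with both. *PDGFRB* carried this, with 0.68 after TGFβ1 and -0.68 after galunisertib, and 1 of the 2 summed genes was well above background on all arrays there. *RGS5* had -0.48 after each, read from a different probe than the one in the sum. *DCN* and *LUM* were measured by no probe that passed. In SNU-449 the sum was 30.1 to 35.5 on the control arrays, mostly *RGS5*, and 43.8 to 52 with TGFβ1. The hepatocyte sum in PLC/PRF/5 was 621 to 896 on the control arrays. With TGFβ1 it was 677 to 822, inside that range, and with galunisertib 578 to 617. *ALB* fell by 0.94 and 0.97, and 2 of the 6 genes were called lower after each agent. After TGFβ1, 4 of the 6 differences were below 0 and 2 above, and after galunisertib all 6 were below 0. The part of these markers in the differences above was not tested.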

How the data were processed

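RNA from 24 cultures was hybridised to one-colour Agilent arrays of 62976 spots. The deposited values used here are the processed signal intensities, after background subtraction, that Agilent Feature Extraction 10.7.3.1 wrote per spot. The authors' deposited log2 values, normalized to the 75th percentile and centred per probe on the median of all arrays, served as an alternative. Over shared probes both sources ran in the same direction.

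Control and outlier spots were left out. The intensities of the spots of 1 probe were averaged. Each probe mean was then divided by its array's 75th percentile, floored at 5.7% of it and log2-transformed. Of the probes of a gene that were well above background on all 3 arrays of a group, the brightest was used. Genes were named through RefSeq accessions (31104 of 58201 probes). Groups came from the sample labels. limma 3.58.1 in R 4.3.3 was fitted to the 12 arrays of a line, or to all 24 for comparisons between lines, and tested on simulated data. A call was a Benjamini-Hochberg adjusted p below 0.05 over all genes. The study's limits (fold above 2, p below 0.001) were a second rule, applied to the limma p unless the t-test is named. These are the limits of the paper's figure legends, and its galunisertib gene tables state a looser p. The number of arrays limits the precision.

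Replicate numbers were slides, scanned on 1 day. Deviations of same-numbered arrays correlated at over 0.1 on each slide for TGFβ1 versus control (0.17 to 0.30 in PLC/PRF/5, 0.129 to 0.225 in SNU-449) and for both agents versus TGFβ1 in SNU-449 (0.101 to 0.267). There the number was read as pairing the arrays, and not in the other comparisons. The reported differences, p-values and calls nonetheless come from a fit without the replicate block in every comparison. The block was run as an alternative only.

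The genes and lists were chosen with earlier results of these data known. Values are given for each gene called in a treatment comparison or line difference and for those most different between controls, and for the largest called genes of 2 further lists. Another list is not reported here. Alternatives were the background correction (normexp on the spot and background medians), scaling, floor, filter, probe choice, authors' values, the replicate block, a left-out replicate, and the methods' t-test. The last was an ordinary t-test on each gene alone. It left out the random variance model of the paper, which shares the spread between genes, so its counts are not those of the authors' own test. Leaving out single arrays was added after seeing the data.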

Additional observations from a re-analysis of the deposited data

Results flagged for a closer look

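The differences below are of the SNU-449 effect minus the PLC/PRF/5 effect on the log2 scale, and each difference was itself tested with limma over 17900 genes. They are given because the 2 lines responded differently to the same agent.

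For TGFβ1 versus control, the difference was 2.23 for *ABLIM3*, -1.27 for *CAV1*, -0.72 for *TAGLN2*, 0.45 for *PDLIM5* and 0.35 for *TPM3*, with limma adjusted p of 1.34e-06, 0.00063, 0.00726, 0.0363 and 0.0196. *ABLIM3* kept its call under each of the 13 alternatives that gave a value and with each of 12 arrays left out in turn, while its difference ranged from 1.00 to 2.43.

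For galunisertib versus control, 8 genes had the lower effect in SNU-449. The difference was -1.13 for *ACTN1*, -1.02 for *ZYX*, -0.75 for *PDLIM7*, -0.58 for *PDLIM5*, -0.56 for *TPM1*, -0.50 for *CNN3*, -1.50 for *FHL2* and -0.97 for *MYH11*. It was 0.55 for *MYLK* and 0.79 for *ACTA2*. *MYH11* was at the floor on every SNU-449 array and *ACTA2* on every PLC/PRF/5 array, so these 2 differences hold the change of 1 line. *FHL2* was near the floor on the PLC/PRF/5 control arrays. *ACTA2* lost its call with normexp background correction, with each array scaled to its median and with the authors' values.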

How the results depend on the processing

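Of the 77 treatment calls, 16 held under every alternative run, among them *TPM1* and *TAGLN2* for TGFβ1 in PLC/PRF/5 and *ABLIM3* and *TPM1* for TGFβ1 in SNU-449, and 43 held without any 1 array. Scaling each array to its median ended 46 calls, the methods' t-test 40, normexp background correction 14 and the replicate block 9. Of the values of called genes under the alternatives, 2201 kept direction and call, 534 lost the call and 2 reversed. Alternatives that keep all arrays also called 42 further gene and treatment pairs, 20 of them with normexp, 14 with the percentile over detected probes alone and 1 with the replicate block. The reversals were *PDLIM5* between the control cells (0.26) and *MYH9* for galunisertib in SNU-449 (-0.054), both with the mean of all passing probes of a gene, which merges probes that moved apart.

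Counts of genes called that moved by over 1.5 times were as follows, and the cause was not tested. Scaled to the array median, TGFβ1 gave 3 in PLC/PRF/5 and 4 in SNU-449, galunisertib 1 and 0, both agents versus TGFβ1 10 in SNU-449, both agents versus galunisertib 3 and 0, and the line differences 1 for TGFβ1 and 3 for galunisertib. That scaling moved the median of all genes by -0.28 between the controls and by 0.24 for both agents versus TGFβ1 in PLC/PRF/5. With the percentile over detected probes alone, with normexp, with no filter on dim probes and with the replicate block, galunisertib in PLC/PRF/5 gave 1, 1, 2 and 2. Both agents versus galunisertib in SNU-449 gave 0 with no filter, with the replicate block and with the authors' values. The line difference for galunisertib gave 6 with the authors' values and 5 with normexp, and that for TGFβ1 gave 3 with the mean of all probes. By a fold above 2 and p below 0.001, TGFβ1 gave 2 in PLC/PRF/5 and 1 in SNU-449, galunisertib 0 in each, both agents versus TGFβ1 2 and 3, both versus galunisertib 2 and 0, and the line differences 2 and 3. The methods' t-test gave 0 for galunisertib and for both agents versus galunisertib in each line. With the study's limits it gave 1 for TGFβ1 in each line, 2 and 3 for both agents versus TGFβ1, and 0 in the other treatment comparisons.

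Without replicate 1, 2 or 3, counts ran from 29 to 31 between the controls. In PLC/PRF/5 they ran from 2 to 6 for TGFβ1, 0 to 0 for galunisertib, 10 to 15 for both agents versus TGFβ1 and 0 to 2 versus galunisertib. In SNU-449 they ran from 2 to 4, 0 to 3, 6 to 12 and 0 to 1. For the line differences they ran from 1 to 4 for TGFβ1 and from 4 to 6 for galunisertib. Single arrays moved counts by over 1.5 times as well. Leaving out 1 array at a time, SNU-449 gave 5 to 7 for TGFβ1 and 5 to 13 for galunisertib. TGFβ1 in PLC/PRF/5 gave 6 without TGFβ1 replicate 3, and in SNU-449 it gave 5 without TGFβ1 replicate 2 or 3. Galunisertib in PLC/PRF/5 gave 0 or 1 without any of its 6 arrays, and in SNU-449 it gave 5 without control replicate 3. Both agents versus TGFβ1 in SNU-449 gave 11 without TGFβ1 replicate 3. Both versus galunisertib in PLC/PRF/5 gave 5, 6 and 5 without galunisertib replicate 1, replicate 2 or both-agents replicate 1. In SNU-449 it gave 0 without galunisertib replicate 1 or both-agents replicate 1 or 2, and 1 without galunisertib replicate 3. The line difference for TGFβ1 gave 3 without SNU-449 TGFβ1 replicate 3.

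In the 3 comparisons where the replicate number paired the arrays, the block ended the calls named with those results, added *CNN1* for TGFβ1 in SNU-449, and gave 9, 8 and 17 genes against 10, 8 and 18. Dim genes are limited by signal over background. *ACTA2*, *ACTG2* and *CNN1* in PLC/PRF/5 and *MYH11* in SNU-449 have only bounds.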
